A study of Homo sapiens with 15 samples.

Results

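The constitutive proteasome is the protease complex that every cell uses to degrade proteins tagged with ubiquitin. Its genes were followed here in A549 cells treated with geldanamycin, which occupies the ATP site of HSP90, a chaperone. The genes were taken by name: the core subunits PSMA1 to PSMA7 and PSMB1 to PSMB7, the ATPases PSMC1 to PSMC6, PSMD1 to PSMD14, the activators PSME1 to PSME4, the inhibitor PSMF1, the ubiquitin receptor ADRM1 and the assembly factor POMP. Of these 41 genes, 36 had a probe set annotated with 1 gene symbol, out of 19775 genes so measured on the array. PSMA6, PSMC5, PSMD7, PSMD13 and PSME2 had none and have no value here. The brightest probe set of each gene, by its mean across all 15 arrays, stands for it, and levels of different probe sets were not set against each other.

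The proteasome core is a barrel of stacked rings: the outer alpha rings gate entry, and the inner beta rings hold the proteolytic sites, of which PSMB6 is caspase-like, PSMB7 trypsin-like and PSMB5 chymotrypsin-like. A regulatory particle caps the barrel. Its base holds a ring of ATPases that unfold substrates, together with scaffold subunits and ubiquitin receptors, and its lid holds the deubiquitinase PSMD14, which removes the ubiquitin chain. Chaperones such as POMP, PSMD5, PSMD9 and PSMD10 help to build the complex, and alternative caps (PSME1 with PSME2, PSME3, PSME4) open it without ATP. HSP90 folds many signalling proteins, and clients released from it are a known substrate of the proteasome. When proteasome activity is blocked, many subunit genes are known to be raised together by the transcription factor NFE2L1.

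A549 is a human lung carcinoma line. Its total RNA was hybridised to 15 arrays of the type HG-U133 Plus 2.0, with 3 arrays for each of 5 conditions. At 24 h there were vehicle and 40 nM geldanamycin, and at 48 h vehicle, 10 nM and 40 nM geldanamycin. The vehicle was DMSO at 0.4%, the cells had adhered for 24 h before treatment, and per the labels 40 nM was the dose found to inhibit by 50% and 10 nM by 20%. Whether the replicates were separate cultures is not given in the labels, so p-values here measure only how far these arrays spread, which may be technical.

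Values are RMA log2 values as the authors deposited them, and a difference of 1 is a doubling. Averaged over every probe set, vehicle arrays read 5.13 at 24 h and 5.52 at 48 h. The 2 times thus look separately normalized, and no gene's level at 48 h is set against its level at 24 h. Of the markers of this line, the 5 redox enzymes had gene means from 12.4 to 13.9 and the keratins KRT8 and KRT18 were bright (group means of 12.1 or more), but EPCAM was dim (gene mean 4.89) and KRT19 read 4.85 on vehicle at 24 h. The 3 alveolar type 2 genes measured (SFTPC, SFTPB and NKX2-1) were dim, with gene means from 4.38 to 6.56, and did not change with treatment. Of the redox enzymes, AKR1B10 (0.71), AKR1C1 (0.87), ALDH3A1 (0.99) and NQO1 (0.32) rose with 40 nM at 24 h. At 48 h AKR1C1 (0.18) and ALDH3A1 (0.42) rose with 40 nM, and AKR1B10 fell with 10 nM (-0.19). All 5 epithelial markers rose with 40 nM at both times, while with 10 nM CDH1 (2.82) and KRT18 (0.43) rose and KRT19 fell by 2.41. Of markers of other cell types, the 3 measured for leukocytes had gene means from 3.28 to 5.07, and the mean of the 3 ran from 4.61 to 4.76 on vehicle at 48 h and from 4.98 to 5.04 with 40 nM, where CD14 rose by 0.86 (adjusted p = 1.81e-05). Of the 4 for fibroblasts, COL1A1 (gene mean 8.26) rose with 40 nM by 0.50 at 24 h and 0.35 at 48 h and fell by 0.44 with 10 nM, and PDGFRB rose by 0.34 at 24 h. Of 3 for endothelium, 0 passed. The part of these changes in the members' results was not tested. The 3 arrays with 10 nM stood apart on control probe sets. Their poly-A controls, spiked into the RNA before labelling, had a mean of 3.37 ± 0.04 (SD, n = 3), against 5.93 ± 0.06 on vehicle at 48 h and 5.81 ± 0.08 at 40 nM. Their ACTB probe set at the 3' end read 2.68 ± 0.03 above that at the 5' end, against 0.35 ± 0.06 on vehicle and 0.44 ± 0.03 at 40 nM. These values move with every result at 10 nM, and their part in those results was not tested.

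The proteasome genes did not move as 1 block. With 40 nM, genes of the base ATPase ring fell at both times, the activator gene PSME1 rose and the activator gene PSME3 fell, while few genes of the core passed at 24 h. With 10 nM for 48 h the changes went mostly the other way, and genes of both core rings rose. All the changes were small: over the comparisons with vehicle the members' log2 differences ran from -0.55 (PSME3) to 0.54 (PSME1), which are folds of 0.685 and 1.46. In bulk RNA, a change in the number of cells and a change in RNA per cell cannot be told apart.

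Calls rest on limma (adjusted p below 0.05, Benjamini-Hochberg over the 19775 genes). With 40 nM at 24 h, 4 of the 36 members were higher and 11 lower, where 14.8% of all genes were higher and 16.7% lower. With 10 nM at 48 h, 12 were higher and 3 lower, against 14.4% and 11.9% of all genes. With 40 nM at 48 h, 2 were higher and 6 lower, against 10.5% and 10.7% of all genes. In percent of the members, the lower calls at 24 h came to 30.6% and the higher calls at 10 nM to 33.3%, both above the share over all genes, and the higher calls with 40 nM at 48 h to 5.56%, below it. A change of a given size passes more easily in the members, whose median standard error was 0.054 against 0.097 over all genes. Their median absolute difference was 0.11 with 40 nM at 24 h, 0.13 with 10 nM and 0.10 with 40 nM at 48 h. Over all genes it was 0.15, 0.13 and 0.12, so the higher shares do not mean larger changes. The median log2 difference of the members was -0.038 with 40 nM at 24 h, 0.086 with 10 nM and -0.062 with 40 nM at 48 h, against -0.0072, 0.0042 and -0.016 over all genes. The median at 24 h was 0.00031 after cyclic loess between the arrays, and that at 10 nM was 0.046 with array medians subtracted. Of the 36 members, 27 passed in at least 1 of these comparisons, and the like share over all genes was not counted. The 9 that passed in none were PSMA1, PSMB1, PSMB2, PSMC1, PSMD1, PSMD3, PSMD11, POMP and PSMD5.

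**Figure D1:**
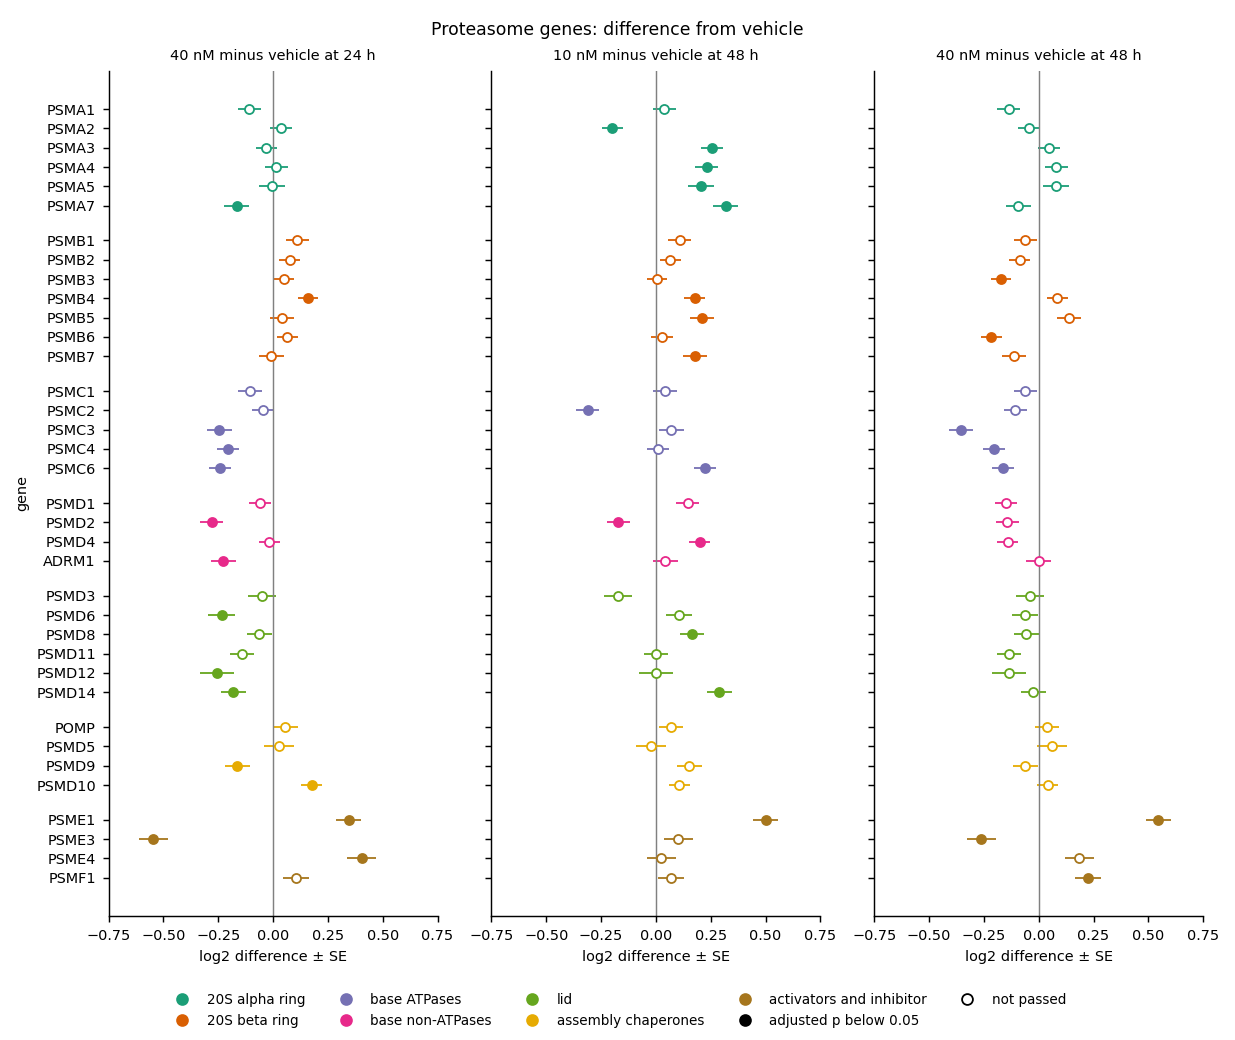
Log2 difference from vehicle (x axis, log2 units, bars are standard errors of the limma fit, 3 arrays per group) of each of the 36 measured proteasome genes (y axis), coloured by role, in the 3 comparisons with vehicle; filled points passed the test. The ATPases PSMC3, PSMC4 and PSMC6 lie left of 0 at 40 nM at both times, PSME1 lies right of 0 in every panel, and 12 points of the middle panel are filled to the right of 0.

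With 40 nM, 5 genes were called at both times and in the same direction: PSMC3, PSMC4, PSMC6 and PSME3 were lower and PSME1 was higher. Their promoters are shown because these are the members with the repeated change. The sequences are RefSeq's on GRCh38.p14, from 250 bases before to 50 bases after the gene's start, 5' to 3' on the gene's strand. Capitals mark the matches, on both strands, to 4 motifs: the antioxidant response element core TGACNNNGC, which NFE2L1 and NFE2L2 are known to bind, the CCAAT box CCAAT, the heat shock element core GAANNTTC and the interferon response element core GAAANNGAA.
PSMC3, chr11:47426390-47426689, minus strand: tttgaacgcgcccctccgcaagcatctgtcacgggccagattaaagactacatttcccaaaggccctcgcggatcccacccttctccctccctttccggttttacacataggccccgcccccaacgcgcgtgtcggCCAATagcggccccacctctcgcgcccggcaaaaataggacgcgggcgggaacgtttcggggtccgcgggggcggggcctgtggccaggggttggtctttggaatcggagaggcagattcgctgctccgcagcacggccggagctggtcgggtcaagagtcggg
PSMC4, chr19:39970915-39971214, plus strand: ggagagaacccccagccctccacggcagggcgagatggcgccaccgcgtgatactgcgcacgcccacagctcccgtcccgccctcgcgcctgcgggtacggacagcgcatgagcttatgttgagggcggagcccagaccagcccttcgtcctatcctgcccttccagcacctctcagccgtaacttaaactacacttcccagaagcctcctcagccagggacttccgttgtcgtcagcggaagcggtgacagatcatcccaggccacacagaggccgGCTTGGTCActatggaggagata
PSMC6, chr14:52706950-52707249, plus strand: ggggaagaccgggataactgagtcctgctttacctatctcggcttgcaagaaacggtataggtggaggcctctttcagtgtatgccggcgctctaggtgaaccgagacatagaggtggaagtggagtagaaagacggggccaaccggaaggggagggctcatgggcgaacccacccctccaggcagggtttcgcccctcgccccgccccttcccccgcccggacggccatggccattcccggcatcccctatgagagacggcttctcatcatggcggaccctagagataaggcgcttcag
PSME1, chr14:24135944-24136243, plus strand: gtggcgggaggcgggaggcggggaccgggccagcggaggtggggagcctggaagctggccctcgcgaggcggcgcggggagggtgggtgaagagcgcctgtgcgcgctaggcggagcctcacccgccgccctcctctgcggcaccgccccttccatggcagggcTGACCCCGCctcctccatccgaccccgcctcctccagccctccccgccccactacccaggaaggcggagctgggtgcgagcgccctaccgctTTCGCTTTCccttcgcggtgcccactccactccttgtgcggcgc
PSME3, chr17:42833147-42833446, plus strand: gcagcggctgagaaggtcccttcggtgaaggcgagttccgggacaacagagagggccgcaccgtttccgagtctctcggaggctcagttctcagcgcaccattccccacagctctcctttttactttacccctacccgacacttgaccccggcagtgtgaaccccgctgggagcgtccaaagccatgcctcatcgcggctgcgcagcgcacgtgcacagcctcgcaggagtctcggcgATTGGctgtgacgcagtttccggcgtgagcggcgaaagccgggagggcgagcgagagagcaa
PSMC3 held a CCAAT box whose first base lay 114 bases before the start, and PSME3 held one, on the other strand, 12 bases before it. PSMC4 held an antioxidant response element core on the other strand, GCTTGGTCA, 27 bases after the start. PSME1 held TGACCCCGC 86 bases before the start and an interferon response element core on the other strand, TTCGCTTTC, 6 bases after it. PSMC6 held no match, and no 2 matches overlapped in these windows. Of the 36 measured members 31 had an entry in the promoter table. The antioxidant response element core was in 10 of the 31 (32.3%) and in 13.6% of all 27305 promoters of the same length, and the CCAAT box in 15 (48.4%) and 35.7%. The interferon response element core was in 5 (16.1%) and 8.29%, and the heat shock element core in 0 and 6.87%. A match is a run of letters and not a measured site.

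In the outer alpha rings of the core, 4 of the 6 measured genes rose and 1 fell with 10 nM, while 40 nM gave 1 call, lower, at 24 h and 0 at 48 h. In percent, 66.7% were higher with 10 nM against 14.4% of all genes, and the 16.7% lower at 24 h equals the share over all genes. PSMA7 was called in both. On the vehicle arrays at 24 h PSMA7 read 11.99, 12.01 and 12.06, and on those with 40 nM 11.84, 11.76 and 11.96. The arrays at 48 h read 12.14, 12.13 and 12.13 on vehicle, 12.44, 12.46 and 12.45 with 10 nM, and 12.03, 12.00 and 12.08 with 40 nM. Every array with 10 nM lay above every vehicle array, and at 24 h the highest treated array lay just under the lowest vehicle array. PSMA7 thus rose by 0.32 ± 0.056 with 10 nM (adjusted p = 0.000664) and fell by 0.17 ± 0.056 with 40 nM at 24 h (0.037). The fall did not pass without vehicle replicate 2 or 3, or treated replicate 1 or 2 (adjusted p from 0.0765 to 0.158), nor with cyclic loess (0.0675) or with the 2 groups fitted alone (0.212).

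PSMA3, PSMA4 and PSMA5 rose with 10 nM by similar amounts. PSMA3 read 11.75, 11.69 and 11.71 on vehicle at 48 h and 11.95, 11.97 and 11.99 with 10 nM, a rise of 0.25 ± 0.050 (adjusted p = 0.00141). With 40 nM at 48 h it read 11.72, 11.73 and 11.84, which overlaps vehicle. PSMA4 rose by 0.23 ± 0.053 (0.00405) and PSMA5 by 0.21 ± 0.060 (0.0183). For PSMA5 the call ended without vehicle replicate 1 or 2, or 10 nM replicate 1 or 2 (adjusted p from 0.0501 to 0.0675). PSMA2 was the member of the ring that fell with 10 nM: it read 12.23, 12.27 and 12.32 on vehicle and 12.10, 12.07 and 12.06 with 10 nM, a change of -0.20 ± 0.049 (0.00687). Its other probe set, dimmer, read 0.20 higher with 10 nM (adjusted p = 0.074), so PSMA2's direction depends on the probe set. PSMA1 passed in no comparison with vehicle (-0.11 and -0.14 with 40 nM at 24 h and 48 h).

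In the inner beta rings, all 7 genes were measured, and they differed from each other at 48 h. With 40 nM for 48 h, PSMB3 and PSMB6 fell. PSMB6, the caspase-like site, read 12.33, 12.31 and 12.35 on vehicle and 12.08, 12.08 and 12.18 with 40 nM, a fall of 0.22 ± 0.048 (adjusted p = 0.00459). At 24 h it read 12.26, 12.22 and 12.27 on vehicle and 12.30, 12.34 and 12.31 with 40 nM, a difference of 0.07 ± 0.048 (0.363). The treated arrays thus lay above every vehicle array at 24 h and below every one at 48 h. The difference between these effects, 48 h minus 24 h, was -0.28 ± 0.068 and passed (adjusted p = 0.00993).

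PSMB3, a structural beta subunit, moved alike: it read 12.74, 12.78 and 12.73 on vehicle at 48 h and 12.56, 12.59 and 12.59 with 40 nM, a fall of 0.17 ± 0.046 (adjusted p = 0.015). At 24 h its difference was 0.05 ± 0.046 (0.477), and the difference of effects was -0.22 ± 0.065 (0.0298). PSMB3's call at 48 h ended without vehicle replicate 2 or 40 nM replicate 1 (adjusted p 0.0583 and 0.066). Its difference of effects did not pass in 8 of 12 fits that left out an array (0.0503 to 0.0776). Those arrays were vehicle replicate 2 and 40 nM replicate 1 at 24 h and all 6 arrays of vehicle and 40 nM at 48 h. PSMB6's calls held in every alternative run, but it has a single probe set, so the choice of set could not change its value.

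Of the other 5 beta genes, 0 passed as lower with 40 nM. PSMB4, the largest rise of the core at 24 h, read 12.17, 12.16 and 12.24 on vehicle and 12.36, 12.33 and 12.36 with 40 nM, a rise of 0.16 ± 0.046 (adjusted p = 0.0164). It rose by 0.18 ± 0.046 with 10 nM (0.0107) and was 0.08 ± 0.046 higher with 40 nM at 48 h, which did not pass (0.258). The rise at 24 h did not pass without vehicle replicate 2 (0.0655) or with the 2 groups alone (0.164). PSMB5, the chymotrypsin-like site, read 11.61, 11.62 and 11.61 on vehicle at 48 h, 11.84, 11.83 and 11.80 with 10 nM, and 11.72, 11.69 and 11.84 with 40 nM. All 6 treated arrays lay above the vehicle arrays, but the difference passed with 10 nM (0.21 ± 0.054, adjusted p = 0.0097) and not with 40 nM (0.14 ± 0.054, 0.0985). PSMB7, the trypsin-like site, rose by 0.18 ± 0.056 with 10 nM (0.0288) and was -0.11 ± 0.056 with 40 nM at 48 h (0.204). That rise of PSMB7 was 0.05 with the mean of the gene's probe sets (0.708), and did not pass with array medians subtracted (0.0657), without _x_at and _s_at probe sets (0.0519) or in 5 of 6 fits that left out an array (0.0556 to 0.0949), all but the fit without vehicle replicate 1. The set used for PSMB7 is of neither the _x_at nor the _s_at kind, so leaving those out did not change its value. So of the catalytic subunits, at 40 nM for 48 h only PSMB6 passed. PSMB1 and PSMB2 differed from vehicle by between -0.09 and 0.11 and did not pass. PSMB2 with 40 nM at 48 h read 11.48, 11.52 and 11.56, below all 3 vehicle arrays (11.61, 11.59 and 11.63), a difference of -0.09 that did not pass (0.249).

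**Figure D2:**
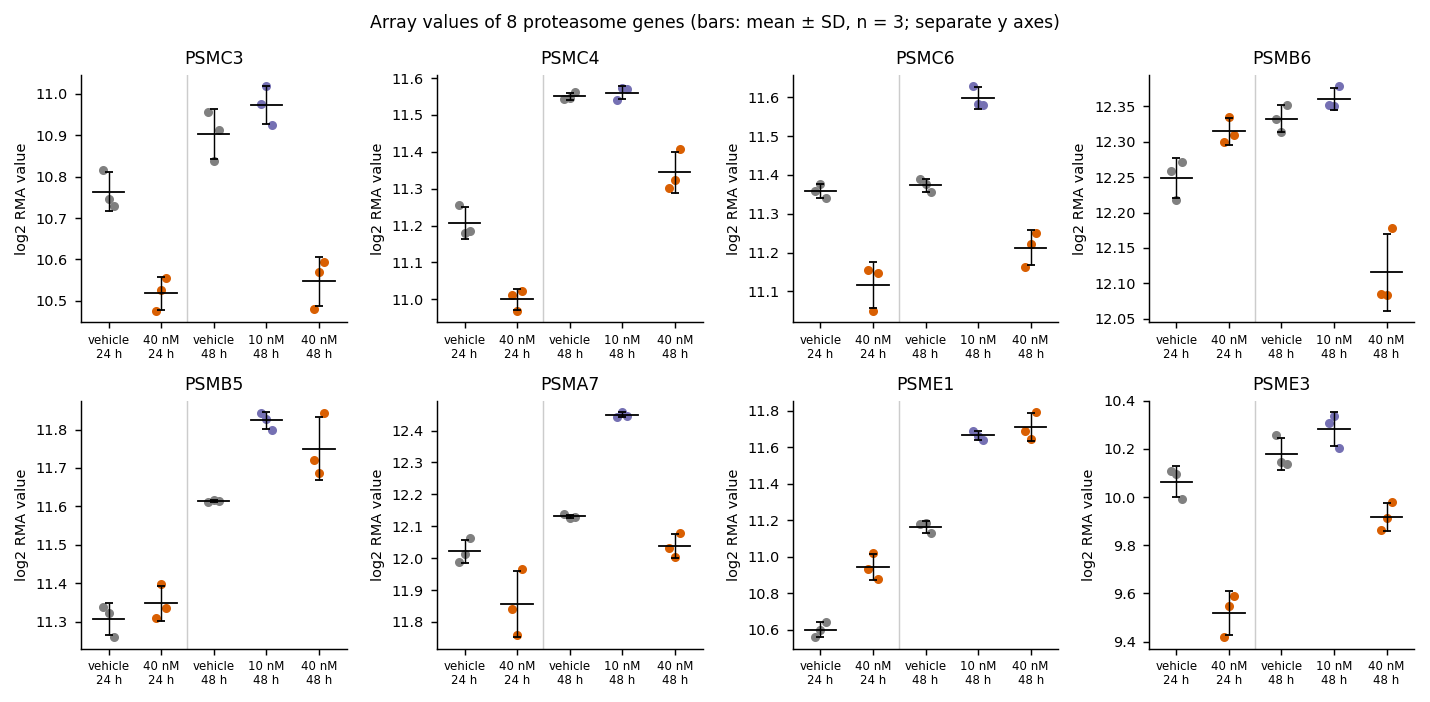
RMA log2 values (y axis, a separate scale for each gene) of 8 proteasome genes on each array, by group (x axis); points are arrays and bars the mean ± SD (n = 3). PSMC3, PSMC4, PSMC6 and PSME3 lie below vehicle with 40 nM at both times, PSME1 lies above it, PSMB6 lies below vehicle at 48 h alone, and PSMA7 and PSMC6 are highest with 10 nM among the arrays at 48 h.

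In the ring of base ATPases, 3 of the 5 measured genes fell with 40 nM at 24 h and the same 3 fell at 48 h, which is 60%, against 16.7% and 10.7% of all genes. PSMC3 read 10.82, 10.75 and 10.73 on vehicle at 24 h and 10.48, 10.53 and 10.55 with 40 nM, a fall of 0.25 ± 0.056 (adjusted p = 0.00347). The values at 48 h were 10.96, 10.84 and 10.91 on vehicle and 10.48, 10.57 and 10.59 with 40 nM, a fall of 0.35 ± 0.056 (0.000372). The groups did not overlap at either time. With 10 nM it read 10.98, 11.02 and 10.93, which overlaps vehicle (0.07 ± 0.056, 0.443). PSMC3 has a single probe set, of the _s_at kind, whose probes can match more than 1 transcript. Whether these are of 1 gene or of several was not checked. The fit without _x_at and _s_at sets did not measure PSMC3.

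PSMC4 read 11.26, 11.18 and 11.19 on vehicle and 11.01, 10.97 and 11.02 with 40 nM at 24 h. The values at 48 h were 11.54, 11.55 and 11.56 on vehicle, 11.54, 11.57 and 11.57 with 10 nM, and 11.30, 11.32 and 11.41 with 40 nM. The fall was 0.21 ± 0.050 at both times (adjusted p = 0.00481 at 24 h and 0.00786 at 48 h), and the 10 nM arrays overlapped vehicle (0.01 ± 0.050, 0.924). At 24 h the call of PSMC4 ended with the 2 groups fitted alone (0.0782).

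At 48 h PSMC6 was the only member that passed in opposite directions at the 2 doses. It read 11.39, 11.38 and 11.36 on vehicle at 48 h, 11.63, 11.58 and 11.58 with 10 nM, and 11.16, 11.22 and 11.25 with 40 nM. The 3 groups are separate, with 10 nM above vehicle (0.22 ± 0.050, adjusted p = 0.00381) and 40 nM below it (-0.16 ± 0.050, 0.0344). At 24 h it read 11.36, 11.38 and 11.34 on vehicle and 11.15, 11.05 and 11.15 with 40 nM, a fall of 0.24 ± 0.050 (0.00168). The fall at 48 h is the weaker call: it ended without any of the 3 vehicle arrays or without 40 nM replicate 1 or 2 (adjusted p from 0.0725 to 0.135), with the 2 groups alone (0.0594) and without _x_at and _s_at probe sets (0.0711). PSMC6 has a single probe set, of neither of these kinds, so its own value was unchanged in that last fit. PSMC2 was lower with 10 nM instead: it read 11.57 on each vehicle array and 11.27, 11.28 and 11.23 with 10 nM, a fall of 0.31 ± 0.052 (0.000425), while with 40 nM its difference was -0.05 at 24 h and -0.11 at 48 h. PSMC1 did not pass in any comparison with vehicle (-0.11, 0.04 and -0.06). Through the probe sets used, all 5 ATPase genes had a difference below 0 with 40 nM at both times. The mean of the 5 fell from 11.13 ± 0.03 to 10.96 ± 0.02 at 24 h and from 11.38 ± 0.01 to 11.20 ± 0.05 at 48 h (mean ± SD, n = 3). PSMC2's sign at 48 h depends on the probe set: its difference with 40 nM was above 0 with the mean of sets and without _x_at and _s_at sets.

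**Figure D3:**
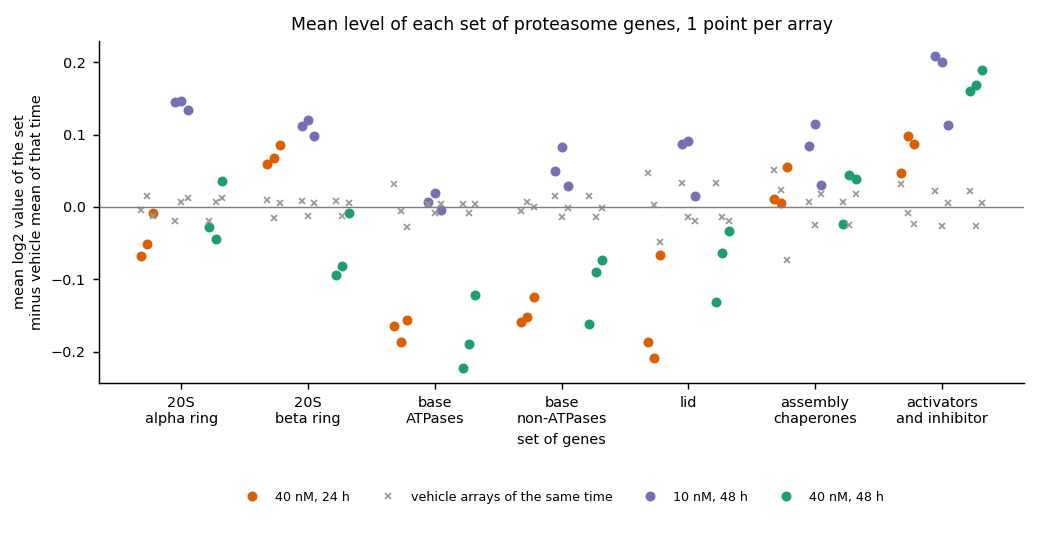
Mean log2 value of each set of proteasome genes on each array minus the mean of the vehicle arrays of the same time (y axis, log2 units), by set (x axis); coloured points are treated arrays and crosses the vehicle arrays. The 6 arrays with 40 nM lie below every vehicle array of their time for the base ATPases, the other base subunits and the lid. The arrays with 10 nM lie above every vehicle array at 48 h for all sets but the base ATPases and the lid.

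Of the 4 other base subunits measured, 2 fell with 40 nM at 24 h (50%, against 16.7% of all genes) and 0 passed with that dose at 48 h. PSMD2, a scaffold that binds substrate shuttles, fell with 40 nM at 24 h. It read 10.72, 10.79 and 10.84 on vehicle and 10.52, 10.48 and 10.52 with 40 nM, a fall of 0.28 ± 0.052 (adjusted p = 0.000757) that held in every alternative run. PSMD2 has a single probe set, so the choice of set could not change its value. For 48 h the values were 10.82, 10.83 and 10.90 on vehicle, 10.67, 10.72 and 10.66 with 10 nM, and 10.66, 10.75 and 10.71 with 40 nM. Both treated groups lay below vehicle by like amounts, and the difference passed with 10 nM (-0.17 ± 0.052, 0.0254) and missed with 40 nM (-0.14 ± 0.052, 0.0698). The call with 10 nM ended without vehicle replicate 2 or 3, or 10 nM replicate 1 or 3 (0.0531 to 0.113), with the 2 groups alone (0.0585) and without _x_at and _s_at probe sets (0.0504). In that last fit the value of PSMD2 itself was unchanged.

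The ubiquitin receptors PSMD4 and ADRM1 differed in their pattern. PSMD4 rose with 10 nM, reading 11.58, 11.58 and 11.52 on vehicle and 11.76, 11.79 and 11.73 with 10 nM (0.20 ± 0.048, adjusted p = 0.00645). That direction depends on the probe set: the value was 0.10 with the mean of the gene's sets (0.311) and -0.18 without _x_at and _s_at sets (0.552). With 40 nM at 48 h it read 11.37, 11.42 and 11.47, below all 3 vehicle arrays, and missed the threshold (-0.14 ± 0.048, 0.0507). At 24 h its groups overlapped (-0.02 ± 0.048, 0.84). ADRM1, which also docks the deubiquitinase UCHL5, read 9.66, 9.57 and 9.49 on vehicle at 24 h and 9.31, 9.35 and 9.38 with 40 nM, a fall of 0.23 ± 0.057 (0.00664), which ended with the 2 groups alone (0.0793). At 48 h its differences were 0.00 ± 0.057 with 40 nM (0.997) and 0.04 ± 0.057 with 10 nM (0.684), and the difference of the 40 nM effects missed the threshold (0.23 ± 0.081, 0.0723). PSMD1, a scaffold, passed in no comparison with vehicle, with 0.14 at 10 nM and -0.15 at 40 nM at 48 h (adjusted p = 0.0517 for each).

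In the lid, 3 of the 6 measured genes fell with 40 nM at 24 h (50%, against 16.7% of all genes) and 0 passed with that dose at 48 h. PSMD14, the deubiquitinase, read 11.04, 10.97 and 10.91 on vehicle at 24 h and 10.74, 10.77 and 10.87 with 40 nM, a fall of 0.18 ± 0.057 (adjusted p = 0.0257). At 48 h it read 11.41, 11.34 and 11.34 on vehicle, 11.65, 11.69 and 11.61 with 10 nM, and 11.28, 11.36 and 11.38 with 40 nM. It was thus higher with 10 nM on every array (0.29 ± 0.057, 0.00161) and overlapped vehicle with 40 nM (-0.02 ± 0.057, 0.86). The fall of PSMD14 at 24 h did not pass without vehicle replicate 1 or 2, or 40 nM replicate 1 or 2 (0.06 to 0.097), nor with the 2 groups alone (0.154).

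PSMD6 and PSMD12, scaffold subunits of the lid, also fell at 24 h. PSMD6 read 10.97, 10.97 and 10.85 on vehicle and 10.66, 10.66 and 10.77 with 40 nM (-0.24 ± 0.061, adjusted p = 0.00769). For PSMD6 the call ended with the 2 groups alone (0.0715). PSMD12 read 11.06, 10.98 and 10.94 on vehicle and 10.71, 10.57 and 10.93 with 40 nM (-0.25 ± 0.078, 0.021). The third treated array of PSMD12 lay just under the lowest vehicle array, and the call ended without vehicle replicate 1, or 40 nM replicate 1 or 2 (0.0624 to 0.104), with the 2 groups alone (0.136) and with the mean of probe sets (-0.14, 0.112). PSMD8 rose with 10 nM by 0.16 ± 0.056 (0.0432), a call that ended in 5 of 6 fits that left out an array, all but the fit without 10 nM replicate 3 (0.0662 to 0.15), with array medians subtracted (0.0908), with the 2 groups alone (0.076) and without _x_at and _s_at sets (0.0747). PSMD8 has a single probe set, of neither of these kinds, so its own value was unchanged in that last fit. PSMD3 and PSMD11 did not pass with vehicle; PSMD3 was -0.17 with 10 nM (0.0575).

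Among the assembly chaperones, POMP, which helps the beta ring form, and PSMD5 passed in no comparison with vehicle at the same time, with differences from -0.02 to 0.07. PSMD9 and PSMD10, which hold ATPase subunits during assembly of the base, passed with 40 nM at 24 h in opposite directions, so 25% of the 4 rose and 25% fell, with 14.8% and 16.7% over all genes. PSMD10, also known as gankyrin, read 10.77, 10.75 and 10.71 on vehicle and 10.87, 10.92 and 10.98 with 40 nM, a rise of 0.18 ± 0.048 (adjusted p = 0.0117). Every treated array of PSMD10 lay above every vehicle array, and the rise did not pass with the 2 groups alone (0.14) or without _x_at and _s_at sets (0.16, 0.111). PSMD9 read 10.02, 10.03 and 9.94 on vehicle and 9.85, 9.81 and 9.84 with 40 nM, a fall of 0.16 ± 0.057 (0.0418). That fall is a borderline call, which ended in 5 of 6 fits that left out an array, all but the fit without vehicle replicate 3 (0.0698 to 0.129), with cyclic loess (0.0665) and with the 2 groups alone (0.161).

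The activators held the largest changes. PSME1, a subunit of the interferon-inducible cap, read 10.56, 10.60 and 10.64 on vehicle at 24 h and 10.93, 11.02 and 10.88 with 40 nM. The arrays at 48 h read 11.18, 11.18 and 11.13 on vehicle, 11.69, 11.66 and 11.64 with 10 nM, and 11.69, 11.64 and 11.79 with 40 nM. All 9 treated arrays lay well above the vehicle arrays of their time. The rise was 0.34 ± 0.057 with 40 nM at 24 h (adjusted p = 0.000272), 0.50 ± 0.057 with 10 nM (1.32e-05) and 0.54 ± 0.057 with 40 nM at 48 h (1.03e-05), and it held in every alternative run. PSME1 has a single probe set, so the choice of set could not change its value. The 2 doses at 48 h differed by 0.04, with a 95% interval from -0.08 to 0.17. The difference of the 40 nM effects, 48 h minus 24 h, was 0.20 ± 0.081 and did not pass (0.118). Its partner PSME2 was not measured by a probe set with 1 symbol.

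PSME3, which forms the nuclear cap, read 10.11, 10.10 and 9.99 on vehicle at 24 h and 9.42, 9.55 and 9.59 with 40 nM. At 48 h it read 10.26, 10.15 and 10.14 on vehicle, 10.31, 10.34 and 10.20 with 10 nM, and 9.86, 9.91 and 9.98 with 40 nM. The 40 nM arrays lay below vehicle at both times and the 10 nM arrays overlapped it. The fall of PSME3 was 0.55 ± 0.066 at 24 h (adjusted p = 1.52e-05) and 0.26 ± 0.066 at 48 h (0.01). At 48 h it did not pass without vehicle replicate 1 (0.0538) or with the mean of the gene's probe sets (0.65), and the difference of the effects was 0.28 ± 0.093 (0.0514).

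PSME4, the activator linked to acetylated histones, rose with 40 nM at 24 h. It read 9.18, 9.06 and 9.00 on vehicle and 9.41, 9.49 and 9.55 with 40 nM, a rise of 0.40 ± 0.066 (adjusted p = 0.00024) that held in every alternative run. At 48 h it read 9.29, 9.23 and 9.23 on vehicle and 9.43, 9.46 and 9.41 with 40 nM, again without overlap, but missed the threshold (0.19 ± 0.066, 0.064). With 10 nM the difference of PSME4 was 0.02 ± 0.066 (0.862). PSMF1, an inhibitor of the proteasome in vitro, read 9.71, 9.67 and 9.86 on vehicle at 48 h and 10.00, 10.00 and 9.92 with 40 nM, a rise of 0.22 ± 0.060 (0.0157). That rise is not secure: its 3 other probe sets read -0.10, -0.18 and -0.13, and the call ended without vehicle replicate 1 or 2, or 40 nM replicate 1 or 2 (0.0577 to 0.079).

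At 48 h the 2 doses were set against each other directly. The arrays with 10 nM also stood apart from those with 40 nM on control probe sets. Their poly-A controls had a mean of 3.37 against 5.81, and their ACTB difference between the ends was 2.68 against 0.44. Dose cannot be told apart from whatever sets these arrays apart, so the differences below are between groups of arrays. Of the 36 members, 2 were higher and 18 lower with 40 nM than with 10 nM, where 11.9% of all genes were higher and 14.5% lower. The median difference was -0.15, against -0.014 over all genes. In the core, 4 of 6 alpha genes and 5 of 7 beta genes were lower with 40 nM. PSMA4 lost its call without any one of the 6 arrays (adjusted p from 0.0528 to 0.185). PSMA1, PSMB1 and PSMB2 each lost theirs in 4 of 6 fits that left out an array (0.0538 to 0.11). Without _x_at and _s_at sets PSMB1 was 0.20 (0.178). With the 2 groups alone, these genes and PSMB3 did not pass (0.0513 to 0.102). The calls of PSMA7 and PSMB6 held in every alternative that measured the gene. The sets of PSMA7 are all of the _x_at and _s_at kinds, so the fit without these did not measure it. PSMB6 has a single probe set, so the choice of set could not change its value. PSMC3 differed most (-0.43 ± 0.056, adjusted p = 5.95e-05), then PSMA7 (-0.41 ± 0.056, 8.22e-05), PSMC6 (-0.39 ± 0.050, 5.45e-05), PSME3 (-0.36 ± 0.066, 0.000798), PSMD4 (-0.34 ± 0.048, 0.000107), PSMD14 (-0.31 ± 0.057, 0.000917), PSMD1 (-0.29 ± 0.051, 0.00058) and PSMB7 (-0.29 ± 0.056, 0.0013). Of these, 3 depend on the probe set: PSMD4 was -0.04 without _x_at and _s_at sets (0.932), and with the mean of sets PSMB7 was -0.07 (0.547) and PSME3 -0.11 (0.182). PSMC2 (0.20 ± 0.052, 0.00957) and PSMA2 (0.15 ± 0.049, 0.0322) were the 2 that were higher with 40 nM, and PSMA2 lost its call without any one of the 6 arrays (0.0623 to 0.0969), with the mean of sets (0.12, 0.12), without _x_at and _s_at sets (0.08, 0.573) and with the 2 groups alone (0.0823). PSMB5 (-0.07, 95% interval -0.19 to 0.04) and ADRM1 (-0.04, -0.16 to 0.08) did not pass. The count of 20 fell to 10 of 28 measured genes when probe sets of the _x_at and _s_at kinds were left out, and to 13 with the 2 groups alone. Leaving out 40 nM replicate 1 gave 14.

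**Figure D4:**
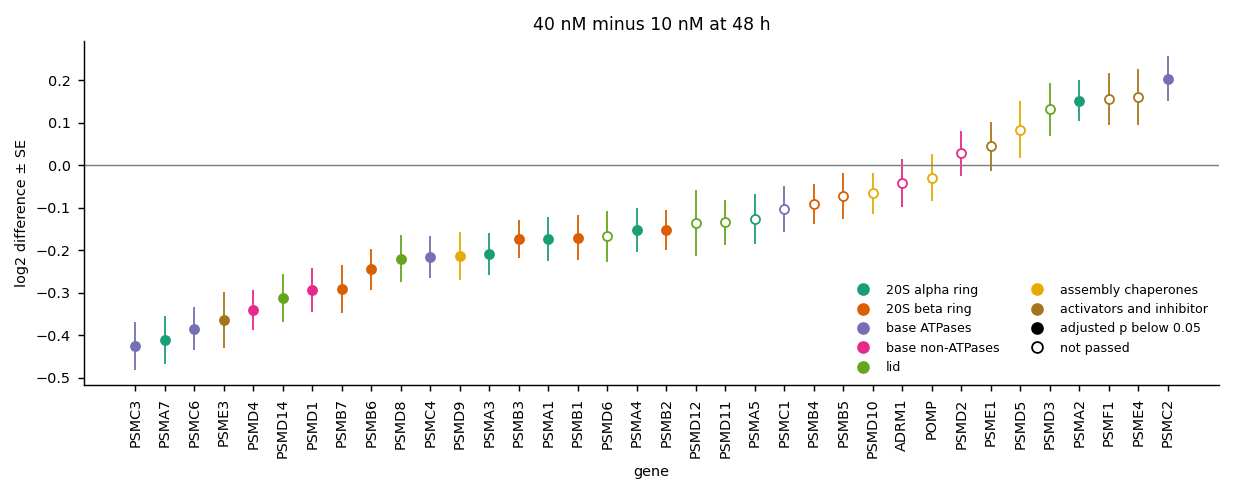
Log2 value with 40 nM minus that with 10 nM at 48 h (y axis, log2 units; bars are standard errors of the limma fit, 3 arrays per group) for the 36 proteasome genes (x axis), ordered by the difference and coloured by role; filled points passed the test. PSMC3 lies lowest at -0.43, 18 filled points lie below 0, and PSMC2 and PSMA2 are the filled points above 0. The arrays with 10 nM also stood apart on control probe sets, which cannot be told apart from dose.

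The comparisons of 10 nM and 40 nM with vehicle at 48 h use the same vehicle arrays, so their values are given side by side and no relation between them is drawn. Of the members, 10 rose with 10 nM and did not pass with 40 nM: PSMA3 (0.25 and 0.05), PSMA4 (0.23 and 0.08), PSMA5 (0.21 and 0.08), PSMA7 (0.32 and -0.09), PSMB4 (0.18 and 0.08), PSMB5 (0.21 and 0.14), PSMB7 (0.18 and -0.11), PSMD4 (0.20 and -0.14), PSMD8 (0.16 and -0.06) and PSMD14 (0.29 and -0.02). PSME1 rose at both doses and PSMC6 passed in opposite directions. The share of all genes with each of these patterns was not counted. Each 10 nM value here goes with the poly-A controls at 3.37 and the ACTB difference of 2.68 on those arrays. GAPDH, whose probe sets at the 3' and 5' ends differed by 0.13 with 10 nM and 0.15 on vehicle, did not show that gap. Its sets were very bright (group means from 13.99 to 14.16 in these groups). What the lack of a gap means for the 10 nM arrays was not tested.

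Over time, the 40 nM effects at 24 h and at 48 h come from different arrays. Of the 15 members called at 24 h and the 8 called at 48 h, 5 were called at both, which is 33.3% of the first and 62.5% of the second. The like overlap over all genes was not counted. The difference of the effects passed for 0 higher and 2 lower members (PSMB3 and PSMB6), against 9.18% and 8.11% of all genes, and its median was 0.008. Across the 36 genes, which share arrays and are not independent, the effects at the 2 times had Pearson's r of 0.692 and the same sign for 28 (77.8%). Across all genes r was 0.529 and the sign was shared by 62.5%. Without the activators and inhibitor, the r of the other 32 was 0.481. Between the vehicle arrays of the 2 times, 28 members were higher and 0 lower, against 67.3% and 3.35% of all genes, with a median of 0.28 against 0.35. Cyclic loess turned that median to -0.017 and subtraction of array medians to -0.17, so no member's own difference between the vehicle groups is reported.

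Of the 36 members, 22 had 2 to 4 probe sets, 36 further sets in all, which show how far a value rests on the set used. They were read in a fit over all single-symbol probe sets, in which members were called anew. Of members called there with 40 nM at 24 h, 10 of the 10 further sets had the same sign as the set used, and 4 passed. With 10 nM the sign was the same for 9 of 12, of which 6 passed. With 40 nM at 48 h it was the same for 2 of 6, of which 1 passed, and 1 further set passed in the other direction. PSME3's 3 further sets read -0.26 ± 0.063, -0.58 ± 0.070 and -0.01 ± 0.083 at 24 h, and -0.06, -0.23 and 0.36 at 48 h. The dimmest of them thus went the other way at 48 h (adjusted p = 0.00747). PSMD11, which passed in no comparison with vehicle at the same time through the set used (-0.14 at both times), had a dimmer set that was 0.54 ± 0.087 higher at 24 h (0.000236) and 0.51 ± 0.087 at 48 h (0.000774).

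Other members with sets that disagreed were PSMD12, PSMA5 and PSME4. PSMD12's further set was 0.36 ± 0.062 higher with 40 nM at 48 h (adjusted p = 0.000901) and 0.45 ± 0.062 higher with 10 nM (7.35e-05), where the set used read -0.14 and 0.00. PSMA5's dim further set, with a mean level of 5.91, read 1.19 ± 0.096 higher with 10 nM and 1.26 ± 0.096 higher with 40 nM at 48 h. PSME4's further sets were 0.97 and 0.54 higher with 10 nM, where the set used gave 0.02. For PSMA7, PSMB4 and PSME4 at 24 h, the further sets had the sign of the set used: PSMA7 at -0.18 beside -0.17, PSMB4 at 0.25 and 0.01 beside 0.16, and PSME4 at 0.23 and 0.40 beside 0.40. The positions of the probes in the transcripts are not used here, so which transcript form each set reads is not given.

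**Figure D5:**
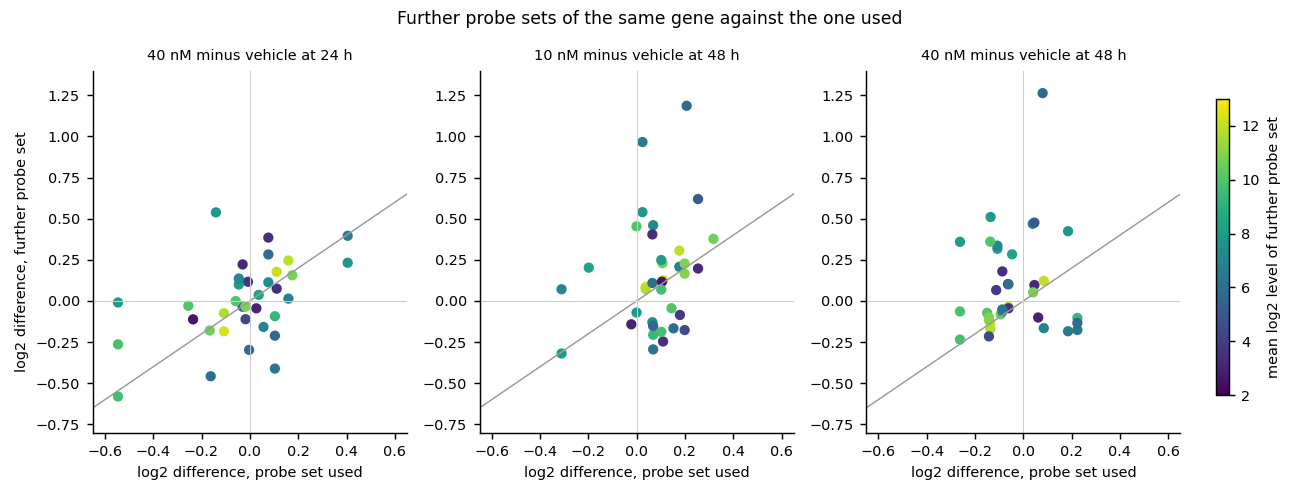
Log2 difference from vehicle of each further single-symbol probe set of a proteasome gene (y axis) against that of the probe set used for the gene (x axis), in log2 units, for the 3 comparisons; the line marks equal values and colour the mean level of the further set. Bright further sets lie near the line, while several dim ones lie far above it at 48 h, up to 1.26 for PSMA5.

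Genes that act with the proteasome but are not its constitutive subunits were counted from lists. The inducible catalytic subunits PSMB8, PSMB9 and PSMB10, which replace the constitutive sites in the immunoproteasome, all rose at 48 h at both doses. Of all genes, 14.4% were higher with 10 nM and 10.5% with 40 nM. PSMB9 read 7.87, 7.72 and 7.72 on vehicle, 9.05, 9.10 and 9.06 with 10 nM, and 8.82, 8.82 and 8.90 with 40 nM, rises of 1.30 and 1.08. PSMB8 rose by 0.71 and 0.61 and PSMB10 by 0.47 and 0.67. At 24 h with 40 nM, PSMB9 fell by 0.24, a call that ended with the 2 groups alone (adjusted p = 0.0584), and the others did not pass. Of 7 other assembly factors, 2 rose and 3 fell with 40 nM at 24 h: PAAF1 (0.25) and ECPAS (0.42) rose, and PSMG1 (-0.40), PSMG3 (-0.51) and PSMG4 (-0.45), which help the alpha ring form, fell. In percent, 28.6% were higher and 42.9% lower, against 14.8% and 16.7% of all genes. The rise of PAAF1 did not pass with the mean of sets (0.20, adjusted p = 0.0776) or without _x_at and _s_at sets (0.15, 0.579), nor the fall of PSMG4 with the mean of sets (-0.17, 0.0673). With 10 nM 3 rose (PSMG1 0.21, PSMG2 0.33, PSMG4 0.22) and 1 fell (PSMG3 -0.60), and with 40 nM at 48 h 0 passed. With 10 nM this came to 42.9% higher and 14.3% lower, against 14.4% and 11.9% of all genes. The rise of PSMG1 with 10 nM ended without any vehicle array or without 10 nM replicate 1 or 2 (0.0763 to 0.158), and that of PSMG4 without vehicle replicate 3 or 10 nM replicate 1 (0.0505 and 0.0591). Without _x_at and _s_at sets PSMG4's rise was 0.03 (0.884), and with the mean of sets 0.16 (0.105). PSMG1's rise did not pass without the _x_at and _s_at sets (0.0563, its own value unchanged) or with array medians subtracted (0.0693).

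Of 7 measured genes that control transcription of the subunits, NFE2L1 read 10.33, 10.28 and 10.22 on vehicle at 24 h and 9.81, 9.82 and 9.97 with 40 nM, a fall of 0.41. NFE2L2 rose by 0.49 and OGT, which modifies NFE2L1, by 0.26; the call of OGT ended without vehicle replicate 3 or 40 nM replicate 2 (0.0744 and 0.0855) and with the 2 groups alone (0.104), and its value was -0.08 with the mean of sets (0.494). In percent of the 7, 28.6% were higher and 14.3% lower with 40 nM at 24 h, against 14.8% and 16.7% of all genes. At 48 h with 40 nM 0 of the 7 passed. With 10 nM NFE2L1 rose by 0.24, and NGLY1 (-0.38) and VCP (-0.29), which process the NFE2L1 protein, fell. This came to 14.3% higher and 28.6% lower, against 14.4% and 11.9% of all genes. The direction of VCP depends on the probe set: it was -0.10 with the mean of sets (adjusted p = 0.138) and 0.09 without _x_at and _s_at sets (0.318). These are transcript levels, and the activity of NFE2L1 is set largely by processing of its protein.

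Of 15 measured ubiquitin genes and associated factors, 2 rose and 3 fell with 40 nM at 24 h, 4 rose and 5 fell with 10 nM, and 2 rose and 2 fell with 40 nM at 48 h. In percent, 13.3% were higher and 20% lower with 40 nM at 24 h, and 13.3% each way at 48 h, near the shares over all genes (14.8% and 16.7%, then 10.5% and 10.7%), while with 10 nM the 26.7% higher and 33.3% lower were above them (14.4% and 11.9%). The largest change with 40 nM was that of UCHL5, the deubiquitinase held by ADRM1. UCHL5 read 9.55, 9.52 and 9.51 on vehicle at 24 h and 8.84, 8.86 and 8.86 with 40 nM, a fall of 0.68 without overlap. Without _x_at and _s_at sets the value was -0.19 and did not pass (adjusted p = 0.287). At 48 h UCHL5 fell by 0.16, but its brightest probe set outside the _x_at and _s_at kinds read 0.51 higher, and the call ended without any vehicle array or without 40 nM replicate 1 or 2 (0.057 to 0.13) and with the 2 groups alone (0.0696). With 10 nM the largest changes were the falls of UBE3C, a ligase that extends chains on the proteasome (-0.64), ZFAND5 (-0.47) and UBQLN4 (-0.35), then the rises of UFD1 (0.24) and KCMF1 (0.23) and the fall of NPLOC4 (-0.23). UBQLN4 did not pass with the mean of sets (-0.18, adjusted p = 0.0551). ZFAND5, which stimulates the proteasome, rose by 0.31 with 40 nM at 24 h, and both of its changes turned to -0.38 and 0.02 with the _x_at and _s_at sets left out. ZFAND2A, a heat-inducible partner of the proteasome, rose by 0.28 with 40 nM at 48 h, and the call ended without vehicle replicate 2 or 3, or 40 nM replicate 2 or 3 (0.0722 to 0.118).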

How the data were processed

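The labels describe 15 A549 samples in 5 groups of 3. Per the submitters' processing notes, the authors made the deposited log2 values by RMA in Affymetrix Expression Console (version not given in the sources used here): background subtraction, quantile normalization, and 1 value per probe set. On arrays there is no read depth, and the number of arrays limits the precision. Of 54675 probe sets, 62 were controls, 41091 had 1 gene symbol in the platform annotation, 1801 had several and 11721 are unnamed here; 41037 symbols were looked up by gene ID. The brightest single-symbol probe set stood for each of 19775 genes. A single limma 3.58.1 model (R 4.3.3, lmFit and eBayes, 10 residual degrees of freedom) gave the 5 group means, with two-sided p-values adjusted by Benjamini-Hochberg over all genes and a threshold of 0.05; ± values of differences are standard errors. The fit was tested on simulated data. Proteasome genes, the further gene lists and the motifs were chosen with earlier results of these data known. Members passing in a comparison with vehicle, catalytic subunits, ubiquitin receptors, PSMD14 and activators were named, and some or all of the passing genes of each further list. Alternatives were other normalizations, low-value handling, probe set choices, variance models, a replicate block, the groups alone and each array left out in turn. Same-numbered arrays' deviations from their group means had correlations from -0.407 to 0.344, so the numbers were not taken as pairs.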

Additional observations from a re-analysis of the deposited data

Results flagged for a closer look

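For 2 members and 12 genes of the further lists, the effect of 40 nM differed between 48 h and 24 h by the test of the difference itself (limma, adjusted p below 0.05; effect at 48 h minus effect at 24 h). PSMB6 went from 0.07 to -0.22, a difference of -0.28 (adjusted p = 0.00993), and PSMB3 from 0.05 to -0.17, a difference of -0.22 (0.0298). Of the inducible subunits, PSMB9 went from -0.24 to 1.08 (difference 1.31), PSMB10 from 0.00 to 0.67 (0.66) and PSMB8 from 0.20 to 0.61 (0.40). Of the other assembly factors, PSMG4 went from -0.45 to 0.06 (0.51), PSMG3 from -0.51 to -0.17 (0.34) and ECPAS from 0.42 to -0.04 (-0.45). Of the genes that control subunit transcription, NFE2L1 went from -0.41 to -0.03 (0.38), NFE2L2 from 0.49 to 0.13 (-0.36) and OGT from 0.26 to -0.20 (-0.46). Of the ubiquitin genes and factors, UCHL5 went from -0.68 to -0.16 (0.52), UBB from -0.16 to 0.04 (0.21) and UBQLN2 from 0.09 to -0.18 (-0.27). In fits that left out 1 array of the compared groups, PSMB3 did not pass in 8 of 12, PSMB8 in 6, UBB in 11 and UBQLN2 in 9. With the mean of probe sets, PSMG4 (0.18, adjusted p = 0.237), OGT (-0.26, 0.142) and UBQLN2 (-0.19, 0.293) did not pass.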

How the results depend on the processing

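Of the member calls, those that held under every alternative that measured the gene were 6 of 15 with 40 nM at 24 h, 9 of 15 with 10 nM, 4 of 8 with 40 nM at 48 h, 9 of 20 for 40 nM minus 10 nM and 1 of 2 for the difference of effects. For the 14 members with 1 probe set, the choice of set could not change the value. The cause of each change below was not tested, except that fits with fewer arrays or groups have less data. With the groups compared alone, the calls were 6 in place of 15 with 40 nM at 24 h, 13 in place of 20 for the doses and 1 in place of 2 for the difference of effects. For 40 nM at 48 h, the 8 calls became 15 without the dimmest 40% of genes, 18 with an intensity trend and robust prior, and 15 with array weights. The 2 calls of the difference of effects became 6 with cyclic loess, 6 without the dim genes, 4 with a floor, 6 with the mean of probe sets, 7 with trend and robust prior, 10 with array weights and 1 with the replicate block. Without _x_at and _s_at probe sets, the doses gave 10 calls.

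With arrays left out in turn, the calls ranged from 11 to 15 with 40 nM at 24 h, 11 to 13 with 10 nM, 5 to 9 with 40 nM at 48 h (5 without vehicle replicate 1 or 2 or 40 nM replicate 1), 14 to 19 for the doses, 1 to 4 for the difference of effects and 25 to 28 between vehicle groups. As replicate numbers are no shared source in the labels, the replicate block is given only here: it gave 14, 14, 7, 18 and 1 calls in place of 15, 15, 8, 20 and 2. The member calls it ended were PSMD9 with 40 nM at 24 h (adjusted p = 0.0679), PSMD8 with 10 nM (0.0733), PSMC6 with 40 nM at 48 h (0.0614), PSMA2 and PSMA4 for the doses (0.0571 and 0.0751) and PSMB3 for the difference of effects (0.0557). The median of members with 40 nM at 24 h (-0.038) was 0.00031 with cyclic loess and 0.0056 without _x_at and _s_at sets. That with 10 nM (0.086) was 0.046 with array medians subtracted. Without _x_at and _s_at sets, that with 40 nM at 48 h (-0.062) was -0.012 and that for the doses (-0.15) was -0.083. The vehicle median (0.28) was -0.017 and -0.17 with cyclic loess and array medians.

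Among genes that passed either as reported or under the alternative, signs changed only with the choice of probe set, with the mean of sets or with _x_at and _s_at sets left out. Genes that passed in neither are not listed. With 40 nM at 24 h they were PSMD11 (0.20, 0.54), PSMF1 (-0.41), OGT (-0.084), UBQLN1 (-0.039), ZFAND5 (-0.38) and KCMF1 (0.10). With 10 nM they were PSMA2 (0.0022, 0.20), PSMD4 (-0.18), PSMD12 (0.23), VCP (0.092), UCHL5 (0.070, 0.29), RAD23B (-0.18) and ZFAND5 (0.024). With 40 nM at 48 h they were PSMA2 (0.28), PSMC2 (0.18, 0.32), PSMD11 (0.19, 0.51), PSMF1 (-0.047, -0.18) and UCHL5 (0.089, 0.51). For the doses they were PSMB1 (0.20), PSMD11 (0.22, 0.58), PSMD9 (0.027) and PSME4 (-0.37), and for the difference of effects POMP (0.30, 0.63).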
